A study of Mus musculus with 412 samples.

Results

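The serotonin receptors of colonic sensory neurons are described here through 10 genes, Htr1a, Htr1b, Htr1d, Htr1f, Htr2a, Htr2b, Htr3a, Htr3b, Htr4 and Htr7, taken by symbol from the 45513 genes of the table, of which 44585 had a symbol. Each of the 10 symbols matched 1 entry. They were measured in 325 single neurons of C57BL/6J mice, 167 from thoracolumbar (TL, T10 to L1) and 158 from lumbosacral (LS, L5 to S2) dorsal root ganglia (DRG). Fast Blue, a fluorescent tracer that nerve endings carry back to the cell body, had been injected into the colon wall 3 to 10 days before the ganglia were taken, and stained neurons were picked by pipette from separate TL and LS cultures. All mice were healthy, no group was treated, and the age of the mice is not given in the sources used here. No label names the mouse of a neuron, so TL and LS each counted as 1 sample, and no test or p-value is given.

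Serotonin in the gut comes mostly from enterochromaffin cells of the mucosa, and the endings of DRG neurons lie within its reach. The receptors fall into 4 kinds by what they do. The Htr1 receptors couple to Gi/o proteins and lower cyclic AMP, the Htr2 receptors couple to Gq/11 proteins and phospholipase C, Htr4 and Htr7 couple to Gs proteins and raise cyclic AMP, and Htr3a and Htr3b are subunits of a cation channel. The Htr3a subunit can form the channel alone, while Htr3b needs Htr3a.

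A level is the deposited value taken off its log2 scale and rescaled so that the values of a neuron add up to 1000000. It is relative to gene length, so that levels of different genes can be compared. Expressed means a level of at least 10 in that neuron. Intervals given for shares are 95% Clopper-Pearson intervals and hold only the error of counting. Where a share was 0, the upper limit given is instead 3 counts of the neurons in that group. The neurons held 416027 to 12058402 recovered reads each, the TL median being 2709483 and the LS median 3202601, so the shares were also computed from reads thinned to 500000 per neuron, with at least 5 reads counted as expressed. This cut is not scaled to gene length, so thinned shares differ from the others in measure as well as in depth.

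All 10 genes of a sensory neuron marker list, such as Prph and Scn10a, were each expressed in at least 75.9% of the neurons of either segment. The 10 genes of a satellite glia list, such as Apoe and Fabp7, had a summed level with a median of 2557 in TL (range 0 to 100224) and 1419 in LS (range 0.407 to 61182), and all 10 were expressed in some neuron of each segment. Among macrophage genes, C1qa, C1qc and Ptprc reached the threshold in no neuron. The summed level of 8 endothelial genes was at most 23209 in TL, in 1 neuron, and at most 100 in LS.

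The promoter windows of Htr1d, Htr3b and Htr7 are shown because the pairs among these 3 genes were found in the same TL neurons more often than their shares give. Each window runs from 250 bases before to 50 after the RefSeq start on GRCm38.p6 and is written 5′ to 3′ on the strand of the gene, with CG dinucleotides in capitals. The Htr1d window is chr4:136423274-136423573 on the plus strand, the Htr3b window is chr9:48964941-48965240 on the minus strand and the Htr7 window is chr19:36057311-36057610 on the minus strand.
Htr1d: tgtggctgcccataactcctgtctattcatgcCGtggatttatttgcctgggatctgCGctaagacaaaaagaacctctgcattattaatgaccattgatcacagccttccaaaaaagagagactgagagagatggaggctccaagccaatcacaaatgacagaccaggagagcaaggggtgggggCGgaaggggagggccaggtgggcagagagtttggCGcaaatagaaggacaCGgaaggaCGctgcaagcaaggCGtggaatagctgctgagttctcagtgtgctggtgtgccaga
Htr3b: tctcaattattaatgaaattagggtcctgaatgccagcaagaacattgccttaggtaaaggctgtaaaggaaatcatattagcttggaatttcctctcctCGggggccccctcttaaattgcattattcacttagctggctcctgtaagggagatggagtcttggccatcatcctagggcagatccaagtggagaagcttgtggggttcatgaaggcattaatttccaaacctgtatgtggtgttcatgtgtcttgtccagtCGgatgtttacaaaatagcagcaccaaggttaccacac
Htr7: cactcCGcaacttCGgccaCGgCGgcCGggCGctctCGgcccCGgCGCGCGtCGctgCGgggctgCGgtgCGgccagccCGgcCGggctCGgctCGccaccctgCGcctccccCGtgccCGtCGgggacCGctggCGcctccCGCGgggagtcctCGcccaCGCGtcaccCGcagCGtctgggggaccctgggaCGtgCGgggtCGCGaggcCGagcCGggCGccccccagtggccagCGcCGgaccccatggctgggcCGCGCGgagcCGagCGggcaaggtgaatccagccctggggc

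The 3 windows differed widely in CG. The Htr7 window held 46 CG and 81% G or C, and 1.65% of the 32851 promoter windows of this length held as many CG. The Htr1d window held 7, which was also the median over all windows. The Htr3b window held 2, and 23.3% of windows held no more. The RefSeq start of Htr7 lies 147 bases from the start of the gene in the GENCODE annotation, while those of Htr1d and Htr3b are the same in both. CG reads the same on both strands and overlaps no other motif counted here. No binding or methylation was measured, and nothing about regulation can be read from the windows.

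Most neurons expressed at least 1 of the 10 receptors. This held for 136 of 167 TL neurons (81.4%, interval 74.7% to 87%) and 138 of 158 LS neurons (87.3%, interval 81.1% to 92.1%). By share, the order in TL was Htr3a (60.5%), Htr3b (32.9%), Htr1b (29.9%), Htr2a (22.8%), Htr1d (16.8%), Htr4 (10.2%), Htr7 (7.78%) and Htr1a (4.19%). Only Htr3a stood clear of its neighbour there, and the intervals of all other neighbours in that order overlapped. The order in LS was Htr3a (80.4%), Htr3b (55.7%), Htr2a (17.7%), Htr1d (15.2%), Htr7 (7.59%), Htr1b (6.96%), Htr1a (4.43%) and Htr4 (1.27%). In LS the intervals of Htr3a, Htr3b and Htr2a lay apart from each other, and the remaining neighbours overlapped.

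**Figure D1:**
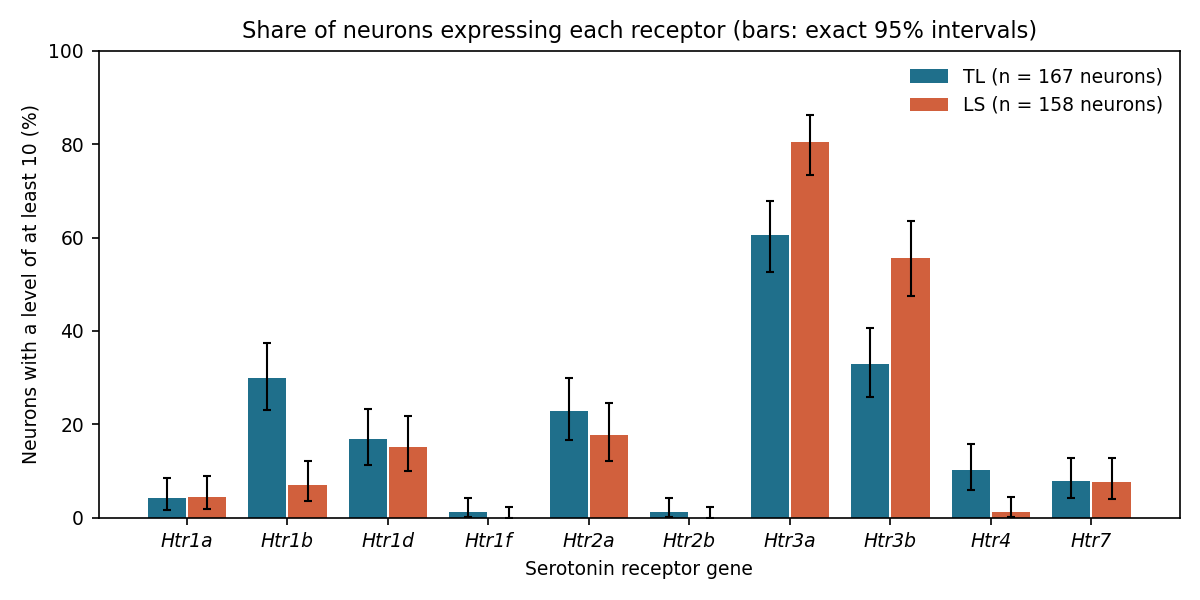
Share of neurons (%) with a level of at least 10 for each receptor, with 167 TL neurons in blue and 158 LS neurons in orange and exact 95% intervals as error bars. Htr3a is the most widely expressed of the 10 in both segments, Htr3a and Htr3b are more frequent in LS, and Htr1b and Htr4 are more frequent in TL.

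A receptor was called higher in a segment when its mean level was at least 2 times that of the other segment and the direction was the same in each of library plates 2 to 6, the 5 plates that hold both segments. Of the 8 receptors expressed in at least 10 neurons, Htr3a and Htr3b were called higher in LS and Htr1b higher in TL, while 5 were not called. Over the 13440 genes compared, 3.68% were called higher in LS and 3.27% higher in TL. The median log2 ratio of LS to TL was 0.06 over the 8 receptors and 0.05 over all genes compared.

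Htr3a had the highest mean level of the 10 receptors in both segments. Over TL neurons its level had a median of 52.9 and a highest value of 4076, and over LS neurons a median of 628 and a highest value of 7209, from 0 in each. The means were 437 in TL and 1161 in LS, a ratio of 2.66. The segments overlapped over almost the whole range, but 60.5% of TL neurons (interval 52.6% to 67.9%) and 80.4% of LS neurons (interval 73.3% to 86.3%) were above the threshold, and these intervals did not overlap. Within plates, the share in TL ran from 47.4% to 74.1% and that in LS from 75.7% to 86.8%. After thinning, the shares were 60.2% in TL and 80.6% in LS.

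Htr3b followed the same direction at lower levels. Its gene is a neighbour of Htr3a on the minus strand of chromosome 9 (GRCm38, GENCODE M21), with Htr3a at 48899213 to 48911099 and Htr3b at 48935008 to 48964990. Its level had a median of 0.904 and a highest value of 409 in TL, against 14.2 and 487 in LS. The means were 26.7 and 64.1, a ratio of 2.4. It was expressed in 55 TL neurons (32.9%, interval 25.9% to 40.6%) and 88 LS neurons (55.7%, interval 47.6% to 63.6%), and thinning gave 35.5% and 56.8%. The call is lost when means are taken of log2(level + 10).

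Depth and glial RNA differed beside these genes in LS. LS neurons with Htr3b held a median of 3596873 reads against 2746068 in those without. Their summed satellite glia level had a median of 1705 (range 11 to 9661) with Htr3b and 86.9 (range 0.407 to 61182) without, and with or without Htr3a it was 1593 (range 0.481 to 61182) and 73.8 (range 0.407 to 54928). None of the 10 glial genes was at 0 in any of these groups. Without S100b, which large sensory neurons also express, the medians were 277 and 45.4 for Htr3b. The summed level of 10 macrophage genes had a median of 38.7 (range 0 to 233) with Htr3b and 69.6 (range 0 to 299) without. The part of RNA from other cells in these results was not tested.

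Of the Gi/o-coupled receptors, Htr1b differed between segments. It inhibits transmitter release at many terminals and, with Htr1d, is a target of the triptans. Its level had a median of 5.53 and a highest value of 47.4 in TL, against 0.754 and 20.3 in LS, with 0 in some neurons of each. The means were 7.33 and 2.85, a ratio of 2.57 in favour of TL, and the mean was higher in TL in 5 of 5 plates. It was expressed in 50 TL neurons (29.9%, interval 23.1% to 37.5%) and 11 LS neurons (6.96%, interval 3.53% to 12.1%). Many of its levels lay near the threshold, as the plot of levels shows. Thinned reads, with a cut not scaled to gene length, gave 48.2% of TL and 26.5% of LS neurons. A threshold of 20 gave 8.38% and 0.633%. The call is lost when means are taken on the log2 scale with a pseudocount of 1 or 10. Its exons overlap those of the antisense gene D430036J16Rik, and the reads of the 2 genes cannot be told apart without strand.

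Htr1d, also a triptan target, was expressed in 28 TL neurons (16.8%, interval 11.4% to 23.3%) and 24 LS neurons (15.2%, interval 9.98% to 21.8%). Among expressing neurons its level had a median of 45.3 in TL (range 13.4 to 228) and 19.1 in LS (range 10.4 to 184). The mean over all neurons was 12.9 in TL and 7.55 in LS, a ratio of 1.71, and the mean was higher in TL in 4 of 5 plates. Htr1a, known as an autoreceptor of serotonin neurons, was expressed in 7 neurons of each segment at levels of up to 30.4 in TL and 16.4 in LS. Htr1f was above the threshold in 2 TL neurons, at 30.1 and 73.1, and in 0 of 158 LS neurons, which allows a share of up to 1.90%.

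**Figure D2:**
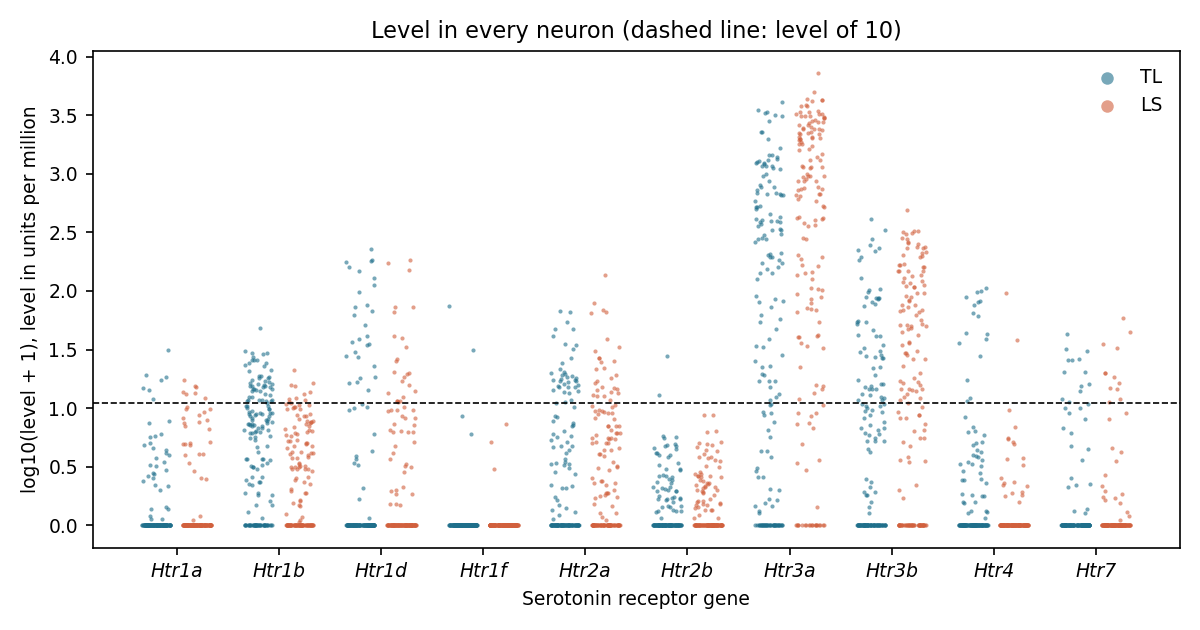
Level of each receptor in each of 325 neurons on a log10 axis with 1 added, TL in blue and LS in orange, with a dashed line at a level of 10. Htr3a reaches 7209 and Htr3b 487, while Htr1a, Htr1b and Htr2b stay below 50 in every neuron and many of the Htr1b points lie close to the line.

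Htr2a, a Gq/11-coupled receptor, had shares with overlapping intervals, in 38 TL neurons (22.8%, interval 16.6% to 29.9%) and 28 LS neurons (17.7%, interval 12.1% to 24.6%). Its level in expressing neurons had a median of 16.8 in TL (range 10.2 to 66.6) and 19.4 in LS (range 10.8 to 135). The means were 6.01 and 6.84, and LS was higher in 3 of 5 plates. Its share moved with the plate. In plate 2 it was 18.5% in TL and 47.6% in LS, where 10 of the 28 LS neurons lay, and in plate 3 it was 36.4% and 4%. Htr2b passed the threshold in 2 TL neurons, at 11.9 and 26.8, and in 0 of 158 LS neurons, again with an upper limit of 1.90%. It was above 0 in 56 TL and 60 LS neurons, but its exons overlap those of Psmd1, a proteasome subunit gene on the opposite strand, so these reads cannot be assigned.

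Htr4, a Gs-coupled receptor of enteric and sensory neurons, was rare and found mostly in TL. It was expressed in 17 TL neurons (10.2%, interval 6.04% to 15.8%) and 2 LS neurons (1.27%, interval 0.154% to 4.5%), and the share was higher in TL in 5 of 5 plates. Expressing TL neurons had levels of 10.4 to 105 with a median of 59.6, and the 2 LS neurons had 37.3 and 95. The mean level was 6.30 in TL and 1.15 in LS, a ratio of 5.47. It was not called because the mean was higher in LS in plate 4, at 2.86 against 1.66, where 1 LS neuron expressed the gene. Without plate 4 the ratio was 12.1 and Htr4 was called higher in TL. The summed glial level of TL neurons with Htr4 had a median of 1436 (range 0 to 7277), against 3028 (range 6.70 to 100224) in TL neurons without. Their summed endothelial level had a median of 3.52 (range 0 to 121) against 66.7 (range 0 to 23209), with Cldn5 alone of the 8 genes at 0 in all 17. The summed macrophage level had a median of 0.782 (range 0 to 114) against 24.7 (range 0 to 161), with C1qa, C1qc and Cx3cr1 of the 10 genes at 0 in all 17. Of these, C1qc was also at 0 in the 150 TL neurons without Htr4. The part of these lists in the result was not tested.

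Htr7, the other Gs-coupled receptor, was expressed in 13 TL neurons (7.78%, interval 4.21% to 12.9%) and 12 LS neurons (7.59%, interval 3.99% to 12.9%). Levels in these neurons had a median of 19.5 in TL (range 10.2 to 41.6) and 18.2 in LS (range 10.2 to 57.9). The means of 2.10 and 2.02 differed in direction between plates, with TL higher in 3 of 5.

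By kind of receptor, the channel subunits were expressed in 65.3% of TL neurons (interval 57.5% to 72.5%) and 82.3% of LS neurons (interval 75.4% to 87.9%). Htr1a, Htr1b, Htr1d and Htr1f, taken as the Gi/o-coupled kind, showed the opposite direction. At least 1 of them was expressed in 44.9% of TL (interval 37.2% to 52.8%) and 25.3% of LS neurons (interval 18.7% to 32.8%). Htr5a and Htr5b were not counted in any kind, and Htr5b was expressed in 55.7% of TL and 74.7% of LS neurons. For Gs-coupled receptors the shares were 18% in TL and 8.86% in LS, with intervals of 12.5% to 24.6% and 4.93% to 14.4% that overlapped. Those for Gq/11-coupled receptors, 24% and 17.7%, also overlapped. Neurons with at least 2 of the 4 kinds made up 49.7% in TL (interval 41.9% to 57.5%) and 38.6% in LS (interval 31% to 46.7%). All 4 kinds were found together in 4 TL neurons and in 0 of 158 LS neurons, which allows up to 1.90%.

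Receptors were then counted within single neurons. At least 2 of the 10 receptors were expressed in 99 TL neurons (59.3%, interval 51.4% to 66.8%) and 102 LS neurons (64.6%, interval 56.6% to 72%), and these intervals overlapped. The number expected if all receptors were expressed independently was not computed for these counts. They therefore do not show whether receptors shared neurons more often than their shares give. None of the 10 reached the threshold in 31 TL neurons (18.6%) and 20 LS neurons (12.7%). The largest number of the 10 in a neuron was 5, in 5 TL neurons, and 4 in LS, in 12 neurons. Of the 5 TL neurons, 3 expressed Htr1d, Htr2a, Htr3a, Htr3b and Htr7. Depth also differed with this number, and its part was not tested. In TL the median reads were 2425614 with none, 3021237 with 3, 2525408 with 4 and 3311520 with 5. In LS, neurons with none held a median of 2756010 reads and those with 4 held 3890586.

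The combinations differed between segments. Htr3a with Htr3b and no other receptor was the most frequent combination in LS, in 41 neurons (25.9%), against 14 TL neurons (8.38%). Htr3a alone came next in LS with 28 neurons (17.7%) and was found in 21 TL neurons (12.6%). Htr1b with Htr3a, in 15 TL neurons (8.98%), was the most frequent combination of more than 1 receptor in TL. The channel subunits with Htr1d alone were found in 15 LS neurons (9.49%) and 5 TL neurons (2.99%), and with both Htr1d and Htr7 in 4 LS and 7 TL neurons.

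Each pair of receptors was compared with the number of neurons expected if they were expressed independently, which is the product of the shares of the 2 genes in that segment times the number of neurons. A pair was called together at an observed count of at least 1.5 times the expected, and apart at no more than 0.5 times, where at least 2 neurons were expected. Of 45 pairs, 23 could be compared in TL, and 6 were together and 3 apart. Over all pairs of genes each expressed in at least 10 TL neurons, 2.29% were together and 2.06% apart. Of those whose shares let them reach 1.5, a condition added after the data had been seen, 8.65% were together. In LS, 13 pairs could be compared, of which 7 could reach 1.5, and 3 were together and 1 apart. The corresponding values for genes in at least 10 LS neurons were 1.91% together, 1.41% apart and 8.24% together among those that could reach 1.5. The receptor pairs had no such minimum, and Htr1a was expressed in 7 neurons of each segment. In TL, Htr1a with Htr1b was among the pairs together and Htr1a with Htr3b among those apart. In LS, Htr1a with Htr3b was among those together. Without plate 6, 0 LS pairs were together, without plate 4 there was 1, and without plate 5, 1 TL pair was apart. The receptors were chosen as a family, and neighbouring pairs share genes and neurons, so the pairs are not independent of each other.

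**Figure D3:**
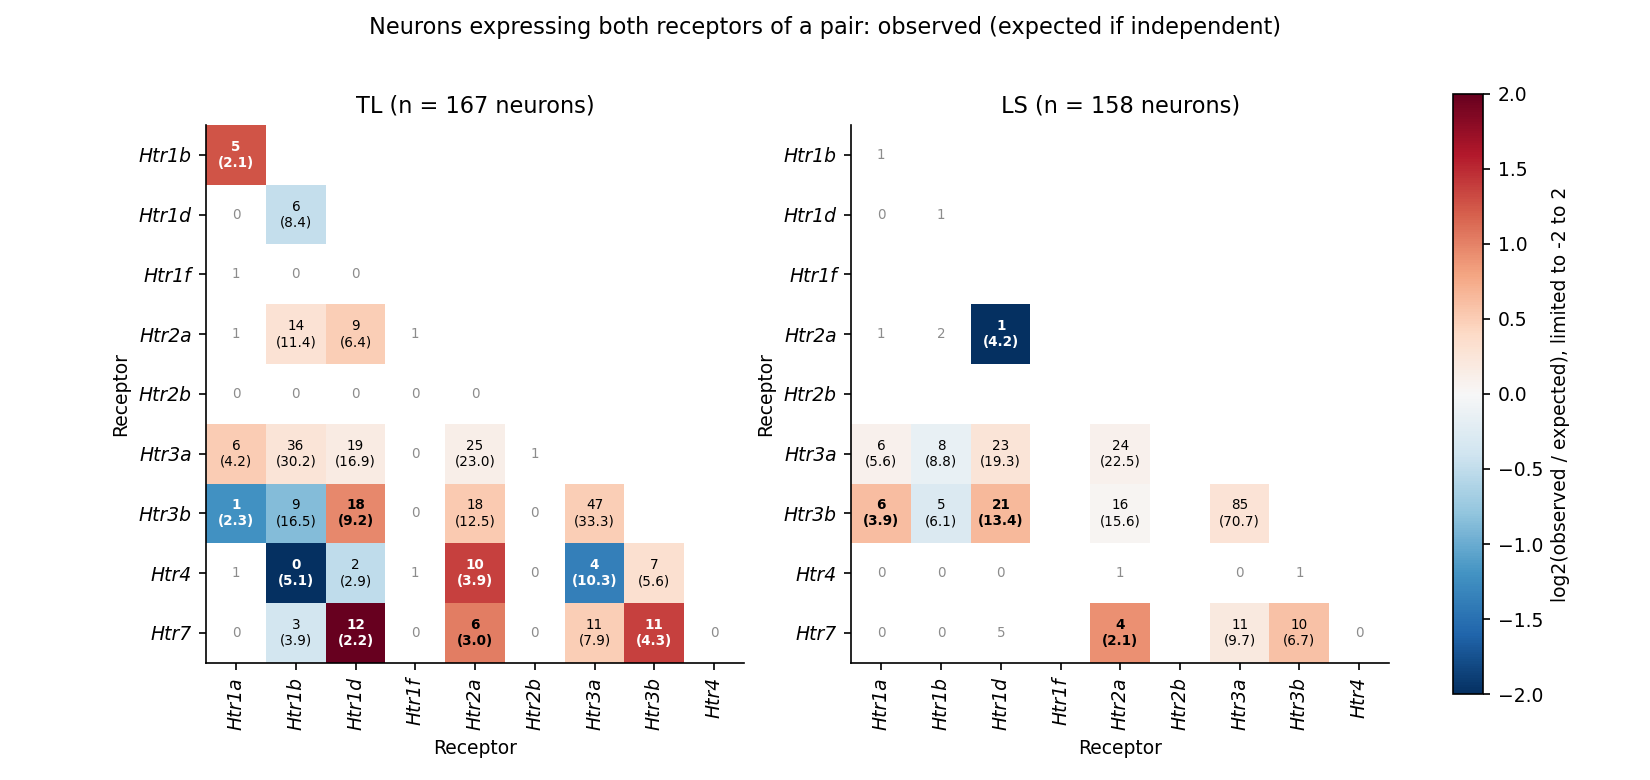
Number of neurons that expressed both receptors of each pair, with the number expected in brackets, for 167 TL and 158 LS neurons, coloured by log2(observed/expected). Bold marks pairs called together or apart and grey marks pairs with fewer than 2 neurons expected. Htr1d with Htr7 in TL, at 12 against 2.18, has the deepest red, and the deepest blue marks Htr1b with Htr4 in TL, at 0 against 5.09, and Htr1d with Htr2a in LS, at 1 against 4.25.

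Htr1d, Htr3b and Htr7, the genes of the promoter windows shown earlier, formed a group in TL. Htr1d was expressed in 12 of 13 Htr7 neurons where 2.18 were expected, a ratio of 5.51. Htr3b was expressed in 11 of the 13 Htr7 neurons (4.28 expected, ratio 2.57) and in 18 of 28 Htr1d neurons (9.22 expected, ratio 1.95). All 3 were expressed together in 10 TL and 4 LS neurons. These TL neurons came from several plates, and Htr1d with Htr7 lay above the count expected within the plate in 4 plates and below it in none. With the expected count summed within plates, the ratios were 3.82, 2.86 and 2.07. Htr3b with Htr7 and Htr1d with Htr3b were each called together under 15 of 17 other settings, which changed the threshold, the scale, the neurons or plates included, or the rule for the call. Htr1d with Htr7 was called under 10 of the 17, and under the other 7, among them those without plate 3, 5 or 6, the expected count was below the minimum. Its ratio was 3.81 to 7.26 where another setting changed it.

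Markers of other cells also differed between TL neurons with and without these receptors. The summed macrophage level had a median of 6.91 (range 0 to 51.4) with Htr1d and 28.7 (range 0 to 161) without, and of 3.53 (range 0 to 27.6) with Htr7 and 24.7 (range 0 to 161) without. Of the 10 macrophage genes, C1qa and C1qc were at 0 in all TL neurons with Htr1d or Htr7, but C1qc was also at 0 in all TL neurons without them. The satellite glia level without S100b had a median of 180 (range 0 to 8155) with Htr1d and 2247 (range 0 to 100064) without, and of 1318 (range 0 to 8155) with Htr7 and 2049 (range 0 to 100064) without. With S100b the glial medians were 2245 and 2629 for Htr1d and 2939 and 2525 for Htr7. With Htr3b the level without S100b was 1318 (range 0 to 47493) against 2127 (range 0 to 100064), and the macrophage medians were 14.8 and 26.2. None of the 9 glial genes was at 0 throughout these groups. The part of these lists in the pairs was not tested.

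In LS these pairs had lower ratios or could not be compared. Htr3b was expressed in 21 of 24 Htr1d neurons, with 13.4 expected and a ratio of 1.57, and the call was lost under 7 of 17 settings, among them those without plate 4 or 6. In 10 of 12 Htr7 neurons Htr3b was expressed, against 6.68 expected, and the ratio just missed 1.5. Htr1d was expressed in 5 of 12 Htr7 neurons, with fewer than 2 expected. Whether the segments differed in these pairs was not tested, and with Htr3b in 55.7% of LS neurons the ratio could not exceed 1.80.

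Htr2a was also found with Htr7, in 6 of 13 TL Htr7 neurons (2.96 expected, ratio 2.03) and 4 of 12 LS Htr7 neurons (2.13 expected, ratio 1.88). The TL pair was called together under 12 of 17 settings, and not without plate 3, where fewer than 2 neurons were expected. The LS pair rested on 4 neurons and was lost under 12 of 17, among them those without plate 2, 5 or 6. With Htr1d, Htr2a was expressed in 9 TL neurons against 6.37 expected, but in 1 LS neuron against 4.25, and the LS pair was called apart under 10 of 17 settings.

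Htr4 was placed differently from Htr1b and Htr3a. None of the 17 TL Htr4 neurons expressed Htr1b, which allows a share of up to 17.6%, with 5.09 expected, and 4 expressed Htr3a where 10.3 were expected, a ratio of 0.389. Both pairs lay below the expected count in 5 of 5 plates. The first was called apart under 15 of 17 settings and the second under 12, the latter not without plate 5. At a threshold of 1 the ratios were 0.850 and 0.801. Htr2a was expressed in 10 of the 17 (3.87 expected, ratio 2.59), which was called together under 14 of 17 settings. Htr3b was present in 7 of the 17, against 5.60 expected, and in 4 of these 7 without Htr3a. The 2 LS Htr4 neurons expressed no Htr3a, and 1 of them expressed Htr2a and Htr3b.

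Htr1a with Htr1b was called together in TL, at 5 of 7 Htr1a neurons against 2.10 expected, and Htr1a with Htr3b was called apart, at 1 of 7 against 2.31. In LS, by contrast, 6 of 7 Htr1a neurons expressed Htr3b, with 3.90 expected. These pairs rest on 7 Htr1a neurons in each segment, and few calls were kept. Htr1a with Htr1b was called under 5 of 17 settings, and not without plate 2, 4, 5 or 6. Htr1a with Htr3b was called apart in TL under 6 of 17, not without plate 2, 4 or 5, and together in LS under 3 of 17, not without plate 3, 4, 5 or 6. Htr1b neurons of TL expressed Htr3a in 36 of 50 (30.2 expected) and Htr3b in 9 of 50 (16.5 expected, ratio 0.547), and neither pair was called.

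The 2 channel subunits were examined for whether Htr3b occurs without Htr3a. Htr3a was expressed in 47 of 55 TL Htr3b neurons (85.5%, interval 73.3% to 93.5%) and 85 of 88 LS Htr3b neurons (96.6%, interval 90.4% to 99.3%). The expected counts were 33.3 and 70.7, and since Htr3a is so frequent the ratios of 1.41 and 1.2 could be no higher than 1.65 and 1.24. The 11 neurons with Htr3b alone had a median Htr3b level of 15.8, near the threshold, against 74.8 in the 132 neurons with both. Conversely, Htr3a was expressed without Htr3b in 54 TL and 42 LS neurons.

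Htr3a exceeded Htr3b in 127 of the 132 neurons with both. The ratio of the 2 levels had a median of 12.8 in TL (range 0.829 to 103) and 17.1 in LS (range 0.283 to 298). The share of neurons with Htr3b rose with the level of Htr3a in both segments. In TL it was 12.1% below an Htr3a level of 10, 20% from 10 to 100, 42.9% from 100 to 1000 and 77.8% from 1000, and in LS it was 9.68%, 18.2%, 51.2% and 95.2%. Median depth per bin ran from 2478820 to 3907073 reads in TL and from 2321342 to 3878030 in LS, with the deepest neurons in the highest bin of each. Over neurons, log2(level + 1) of the 2 genes had a Pearson r of 0.55 in TL (n = 167) and 0.72 in LS (n = 158), which is given as a description, since neurons share libraries and depth.

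**Figure D4:**
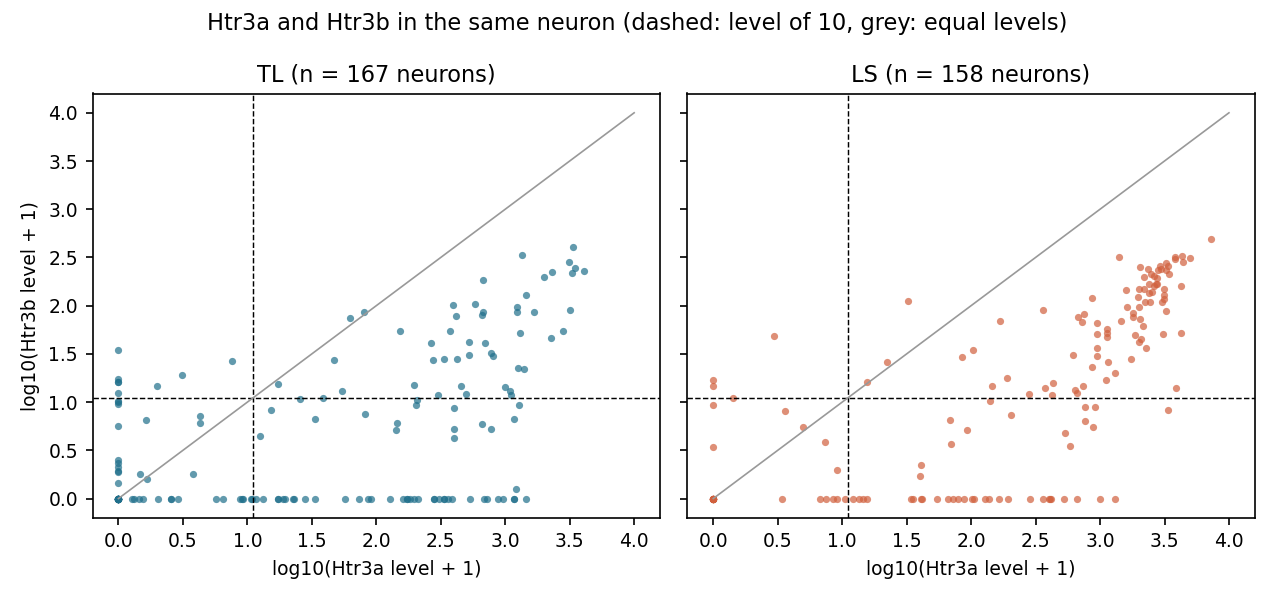
Level of Htr3b against that of Htr3a in each neuron on log10 axes with 1 added, for 167 TL and 158 LS neurons, with dashed lines at a level of 10 and a grey line where both levels are equal. Nearly all neurons with both subunits, 127 of 132, lie below the grey line, and 3 LS and 8 TL neurons have Htr3b alone.

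Some neurons without Htr3a expressed another of the listed receptors. In TL, 35 of 66 such neurons expressed another receptor, among them 14 with Htr1b, 13 with Htr4 and 13 with Htr2a. In LS, 11 of 31 did, with 3, 2 and 4 for the same genes. The remaining 31 TL and 20 LS neurons expressed none of the listed receptors. By comparison, 21 of 101 TL and 28 of 127 LS neurons with Htr3a expressed no other listed receptor.

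Marker genes of sensory neuron classes were then compared between neurons with and without each receptor. Several markers of peptidergic nociceptors were rarer in Htr7 and Htr1d neurons, although most of them expressed Calca, the gene of CGRP. Calca was expressed in 17 of 25 Htr7 neurons (68%) against 99.3% of the others, and in 42 of 52 Htr1d neurons (80.8%) against 273 of 273. Of 25 Htr7 neurons none expressed Trpv1, the capsaicin receptor, against 78.0% of the 300 others, and none expressed Gfra3 or Trpa1. Zero of 25 allows a share of up to 12%. Piezo2, a mechanically gated channel, was expressed in 24 of 25 (96.0%, interval 79.6% to 99.9%) against 40.3%, and Tac1, the gene of substance P, in 20.0% against 83.7%. In Htr1d neurons Trpv1 was expressed in 9 of 52 (17.3% against 82.4% of the others) and Piezo2 in 47 of 52 (90.4% against 35.9%). The directions were the same in both segments.

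Htr3b neurons expressed Piezo2 in 72.0% against 23.1% of the others, Ntrk2, the receptor of BDNF, in 63.6% against 30.8%, and Gfra3 in 27.3% against 79.1%. For Htr3a neurons, Piezo2 was expressed in 54.4% against 21.6% and Trpa1 in 39.5% against 82.5%. Asic3, an acid-sensing channel, was expressed in 32.0% of Htr3a neurons and 8.25% of the others. Hpse was expressed in 43 of 127 LS neurons with Htr3a and 1 of 31 without, and in no TL neuron.

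Htr4 neurons differed from the others in several markers. Mrgprd, a receptor of non-peptidergic nociceptors, was expressed in 14 of 19 (73.7%, interval 48.8% to 90.9%) against 0.98% of the other neurons, and Lpar5, a lysophosphatidic acid receptor, in 15 of 19 against 0 of 306, which allows up to 0.98%. Gfra2 was found in 78.9% against 8.5%, while Asic3 was found in 0 of 19, which allows up to 15.8%, against 26.5%. Th, the tyrosine hydroxylase gene, was expressed in 21.1% against 76.5%. The peptidergic markers Calca and Tac1 were expressed in 19 of 19 and 17 of 19 Htr4 neurons, against 96.7% and 78.1% of the others. At this threshold they are so frequent that they do not place Htr4 neurons in a class. The study describes its Mrgprd class as the only one that lacked Calca altogether, and levels of Calca were not compared here. Trpa1 was expressed in 18 of 19 (94.7% against 49.7%) and Piezo2 in 16 of 19 (84.2% against 42.2%). Within TL, Mrgprd was expressed in 13 of 17 Htr4 neurons and 2 of 150 others, and Th in 3 of 17 and 99 of 150.

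Htr2a neurons expressed Piezo2 in all 38 TL cases, against 35 of 129 TL neurons without Htr2a, but in 12 of 28 LS cases against 60 of 130. Mrgprd and Lpar5 were each found in 11 of 66 Htr2a neurons, against 2.32% and 1.54% of the others. Htr1b neurons expressed Asic3 in 45.9% against 20.1%, and within TL in 25 of 50 against 32 of 117. They expressed Necab2 in 1.64% against 22.0%, within TL in 1 of 50 against 15 of 117 and within LS in 0 of 11 against 43 of 147. Of the 14 Htr1a neurons, 6 expressed Smr2 (42.9% against 5.79%), and 5 expressed Th (35.7% against 74.9%).

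**Figure D5:**
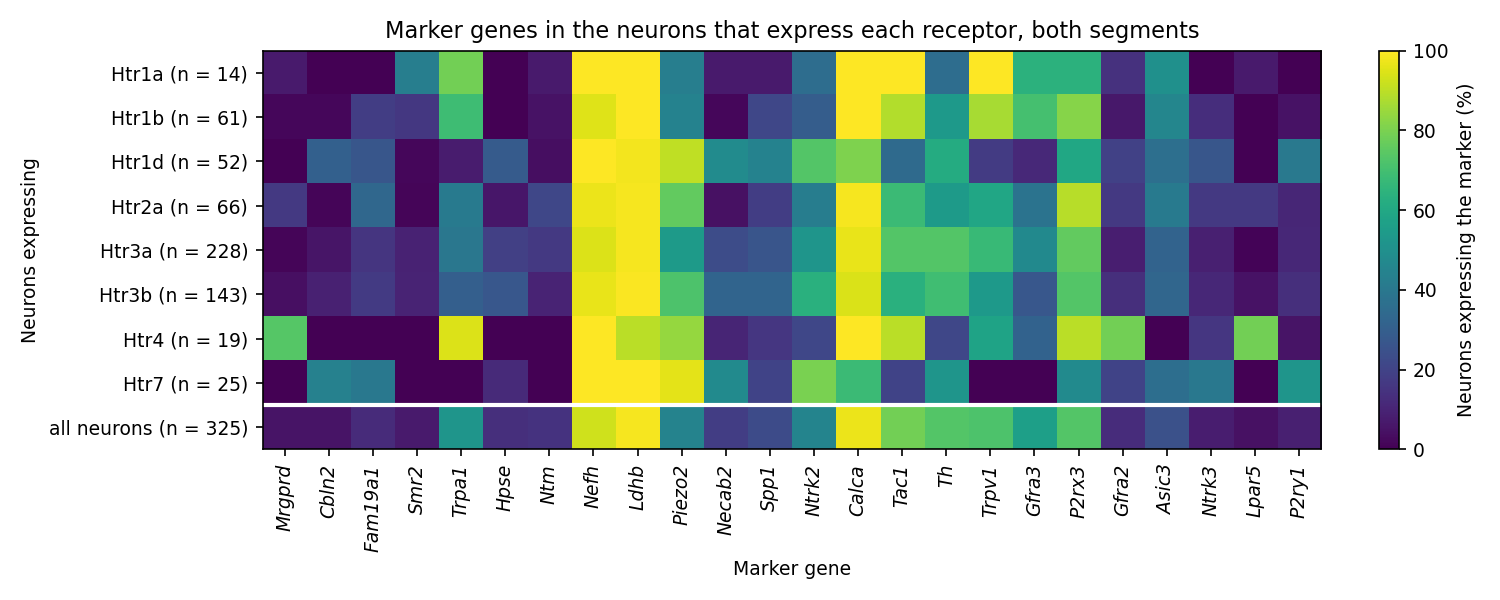
Share of neurons (%) expressing each of 24 marker genes among the neurons that express each of 8 receptors, with all 325 neurons in the bottom row. Htr4 neurons stand out for Mrgprd (73.7%), Gfra2 (78.9%) and Lpar5 (78.9%), and Htr7 neurons for Piezo2 (96.0%) and for Trpv1, Gfra3 and Trpa1 at 0%.

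The genes whose log2(level + 1) followed each receptor most closely over the 325 neurons were ranked among 13440 genes by Pearson r, as a description only. For Htr1d these were Scn4b (r = 0.71), Slc17a7 (0.71) and Scn1a (0.68), a sodium channel subunit, a vesicular glutamate transporter and a sodium channel. Htr7 shared both sodium channel genes, Scn1a at 0.66 and Scn4b at 0.64, with Tmem108 at 0.66. For Scn1a the r with Htr7 was 0.80 within TL and 0.49 within LS. Htr3b was most like Htr3a (0.66), followed by Golim4 (0.62) and Atp5b (0.60), and Htr3a was most like Prkcb (0.73), a protein kinase C, Thy1 (0.67) and Fbxo2 (0.67). Htr1b was followed by Gpr149 (0.65), Sytl3 (0.63) and Oprm1 (0.62), the µ-opioid receptor gene. Values for Htr2a were lower, at 0.42 for Ano3 and 0.41 for Flrt3. Htr4, with 19 neurons, fell under the minimum of 20 set for naming, and its leading genes, Agtr1a, Klk5 and Mroh2b at 0.81 each, are named after their values had been seen.

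The 4 other serotonin receptor genes of the mouse examined were Htr2c, Htr5a, Htr5b and Htr6. Htr5b, which is a pseudogene in humans, was expressed more widely than any of the 10 but Htr3a, in 93 TL neurons (55.7%, interval 47.8% to 63.4%) and 118 LS neurons (74.7%, interval 67.2% to 81.3%). Its means of 28.4 and 41.5 gave a ratio of 1.46, below the 2 needed. Htr5a was expressed in 9 TL and 7 LS neurons, Htr6 in 1 LS neuron and Htr2c in 0 neurons of either segment, which allows up to 1.80% in TL and 1.90% in LS. Of these, 2 could be compared and 0 were called in either direction.

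Of 8 genes of serotonin synthesis, transport and breakdown, 4 could be compared, 1 was called higher in LS and 0 in TL. That gene was Maob, a monoamine oxidase, at a mean of 11.8 in TL (range 0 to 102) and 75.5 in LS (range 0 to 751), a ratio of 6.39. Maoa, its paralogue, was expressed in 89.8% of TL and 86.1% of LS neurons. Tph1, the peripheral enzyme of serotonin synthesis, reached the threshold in 0 neurons, with the same upper limits as Htr2c, Tph2 did so in 9 TL and 7 LS neurons, and Slc6a4, the serotonin transporter, in 1 TL neuron. Of 29 G protein, adenylyl cyclase, phospholipase, kinase, arrestin, channel and chaperone genes, 24 could be compared and 0 were called in either direction. Their median log2 ratio was -0.07, against 0.05 over all genes. Ric3, a chaperone of the Htr3 channel, was expressed in 64.1% of TL and 79.1% of LS neurons at means of 12.8 and 14.7. The genes of these lists other than Maob were picked for naming after their values had been seen.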

How the data were processed

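RNA of 399 picked neurons, 203 TL and 196 LS, was sequenced by Smart-seq2 in 6 library plates without molecular identifiers. Per the labels and the study's methods, the authors used bcl2fastq 2.15.0.4, STAR 2.4.1 and featureCounts 1.4.4 on GRCm38.p3, and deposited normalised log2 values of 325 neurons after their quality filter. The study's figure legends call the scale log(TPM), but the values taken off the log scale did not add up to 1000000 per neuron, and any further scaling is not given in the sources used here. Before its clustering, the study also excluded some of these 325 for genes of satellite glia, and those neurons were kept here. The other 74 neurons and 13 bath controls were not analysed here.

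From each deposited log2 value, x, 2 to the power of the value minus 1, was computed and rescaled to 1000000 per neuron (Python 3.11.15, NumPy 2.4.6, SciPy 1.17.1, pandas 2.3.3). Before rescaling, sums of x ran from 218865 to 11159067 per neuron. Whole reads were recovered from x and gene length. With GENCODE M21 lengths, 65.0% of values were whole within a relative tolerance of 1e-06, and after a search for the other lengths 100% were. Thinning used random seed 1 and left out 1 TL and 3 LS neurons. Doublets were not searched for, as neurons were picked 1 by 1. Scripts were tested on simulated data.

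Neurons are not replicates of a segment, so plates served as strata and no test was made. Named were the 10 receptors, the other receptor genes and called pathway genes, for each receptor in at least 20 neurons the 3 genes with the highest r, and at most 5 markers whose share differed at least 2-fold. Calca beside Htr1d, Htr7 and Htr4, and Tac1, Trpa1 and Piezo2 beside Htr4, were named outside this rule. A gene that this rule names is not reported here. The receptors, lists and thresholds were chosen with earlier results of these data known. Neurons with none of the 10 receptors may express one below the threshold, or may express Htr5a or Htr5b.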

Additional observations from a re-analysis of the deposited data

How the results depend on the processing

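The 10 receptors were recomputed under other thresholds of 5, 20 and 1, without rescaling, without rRNA and mitochondrial genes (a median of 19.8% of a TL and 19.5% of an LS neuron's total), on thinned reads, without 47 neurons with few genes, with each plate left out, and with other rules for the calls. The planned limit on satellite glia left out 0 neurons, so it cannot show how the results depend on glial RNA. The summed glial level of the neurons kept reached 100224 in TL and 61182 in LS. Leaving out the TL neuron with the highest endothelial level was added after the data had been seen.

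Receptors called higher in LS numbered 2 in all but 1 setting, and 1 with log2(value + 10). The number higher in TL fell to 0 with log2(value + 1) or log2(value + 10), and was 2, with Htr4, without the plate condition. With a plate left out these counts were 2 for LS and 1 to 2 for TL, the 2 coming without plate 4.

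Neurons with at least 2 receptors made up 71.9% in TL and 78.5% in LS at a threshold of 5, 34.7% and 50.6% at 20, 86.2% and 91.1% at 1, and 69.3% and 76.1% on thinned reads. At 20, Htr3a was expressed in 95% of TL Htr3b neurons.

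Pairs together in TL fell to 1 at an expected count of at least 5. In LS they fell to 1 at a threshold of 20, without rRNA and mitochondrial genes, on thinned reads and at an expected count of at least 5, and to 0 at ratios of 2 and 0.33. With a plate left out they numbered 4 to 6 in TL and 0 to 3 in LS, with 0 without plate 6 and 1 without plate 4. Pairs apart in TL numbered 5 at a threshold of 5 and 1 at ratios of 2 and 0.33, with a range of 1 to 4 when a plate was left out (1 without plate 5). In LS they numbered 4 at a threshold of 5, 5 at 1 and on thinned reads, 3 without rRNA and mitochondrial genes, and 0 at 20, without rescaling and at an expected count of at least 5, with a range of 1 to 2 when a plate was left out (2 without plate 3). Observed over expected turned to 0 at a threshold of 20 for Htr1a with Htr1b in TL and Htr2a with Htr7 in LS, and at a threshold of 1 to 0.886 for Htr1a with Htr3b and 0.985 for Htr2a with Htr7 in LS. The causes were not tested.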
